A study of Mus musculus with 60 samples.

Results

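Slc37a2 and St8sia5 were followed through all 60 libraries of an RNA sequencing study of the mouse colon. The 2 genes are 2 of the 27179 genes counted, and both were among the 18057 genes that passed the filter on low counts. They were selected on readouts of these same libraries, as genes outside the circadian clock with a large light-phase rhythm in naïve and in arthritic mice, and were found in the count table by their symbols. Their amplitudes and peak times are therefore given as a description, without a test. Slc37a2 is gene 56857 (GRCm38 chromosome 9, 37229149 to 37255738) and St8sia5 is gene 225742 (GRCm38 chromosome 18, 77185847 to 77255450).

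Male DBA/1 mice, 9–10 weeks old, were either left naïve or given collagen-induced arthritis (CIA), a model in which immunity to injected type II collagen attacks the joints. CIA mice received bovine collagen in Complete Freund's adjuvant into the skin above the tail and an intraperitoneal collagen boost on day 21, both at ZT6 (ZT, hours after lights on), and gave tissue 7 days after symptoms appeared. Naïve mice were housed with them, received no injection that the labels name and were taken at the same times. Each of the 12 groups of treatment and time (ZT0, ZT4, ZT8, ZT12, ZT16 and ZT20) held 5 mice and each mouse gave 1 library from a 5 mm section of mid-colon. The section held epithelium, connective tissue, muscle and nerves together, so that fewer cells of a type and less RNA per cell cannot be told apart.

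Slc37a2 encodes a transporter of the endoplasmic reticulum membrane that exchanges glucose 6-phosphate for phosphate, and belongs to the SLC37 family with Slc37a1, Slc37a3 and Slc37a4. St8sia5 encodes a Golgi sialyltransferase that links a sialic acid to another sialic acid on gangliosides, the sialylated glycolipids of the cell surface. Ganglioside synthesis runs from glucosylceramide through lactosylceramide, and the sialyltransferases work in order along it. In the colon, as in other tissues, the clock is a loop in which Arntl and Clock drive their own repressors, and its output factors such as Dbp rise and fall once a day.

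Library totals, to 6 digits, lay between 25840200 and 61426000 counts, with a median of 44082500. Levels are given as CPM, the usual scaling of counts to a common library total, after scaling by the trimmed mean of M-values. Slc37a2 was read 58 to 30520 times per library. St8sia5 was read 0 to 4308 times, with 10 libraries at 3 counts or fewer and 2 libraries at 0. Of all counts from 1 to 20 in the table, 74.0% were even, against 50.5% of the largest counts, so that a St8sia5 count of 2 may stand for 1 read pair. The labelled tissue carried its defining genes: the 8 colonocyte markers had a mean log2 CPM of 9.25 to 10.2 in every library.

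The sequence before the Slc37a2 start site is shown because it is where motifs bound by clock factors were searched for. The window is chr9:37255689-37255988 on the minus strand of GRCm38.p6 (RefSeq), from 250 bases before to 50 bases after the annotated start, and it is printed 5′ to 3′. Capitals mark the motif matches found on either strand.
Slc37a2: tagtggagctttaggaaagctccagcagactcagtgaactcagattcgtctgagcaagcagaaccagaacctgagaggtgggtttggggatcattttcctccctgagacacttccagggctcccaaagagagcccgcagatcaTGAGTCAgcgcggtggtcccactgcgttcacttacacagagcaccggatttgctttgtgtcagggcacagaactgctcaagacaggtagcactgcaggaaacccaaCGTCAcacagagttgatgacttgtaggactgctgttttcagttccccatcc
The E-box CACGTG, the D-box TTATGTAA, the ROR half-site AGGTCA and TTTAT, the core bound by posterior HOX and CDX factors, had no match in this window. They are held by 7.15%, 0.938%, 16.3% and 40% of the 32851 RefSeq promoter windows of the same length. The AP-1 site TGAGTCA, searched for after the sequence had been seen, matched at base 144, and 5.2% of the windows hold it. The cAMP response half-site TGACG matched on the reverse strand at base 250, and 20.8% of the windows hold it. These matches are letters in a window and not binding sites.

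In naïve mice the level of Slc37a2 was high in some mice and low in others at nearly every time. At ZT0 the 5 libraries (replicates 1 to 5) held 78.6, 198, 15.6, 229 and 1.84 CPM. At ZT4 they held 6.53, 496, 38.1, 236 and 487 CPM. At ZT8 the values were 431, 8.12, 59.8, 235 and 564 CPM. Each of these light-phase groups had at least 2 mice near or above 200 CPM and at least 1 mouse below 10 CPM. At ZT12 the libraries held 5.50, 121, 5.91, 127 and 12.6 CPM. The ZT16 libraries held 5.72, 4.89, 66.7, 1.53 and 4.52 CPM. The ZT20 libraries held 4.19, 5.28, 3.58, 42.99 and 12.6 CPM. Levels above 100 CPM were seen in 8 of 15 naïve libraries from ZT0 to ZT8 and in 2 of 15 from ZT12 to ZT20. Levels below 10 CPM were seen in 3 and 9 of these libraries.

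In CIA mice the same picture held, with the high libraries reaching into ZT12. The ZT0 libraries held 4.51, 12.7, 381, 4.21 and 4.31 CPM. At ZT4 the 5 values were 101, 582, 28.8, 120 and 111 CPM. At ZT8 they were 3.60, 5.08, 219, 404 and 23.6 CPM. A lone mouse was high at ZT0, all 5 mice were above 20 CPM at ZT4, and ZT8 was divided. At ZT12 the libraries held 196, 4.72, 125, 449 and 408 CPM. At ZT16 the values were 5.09, 3.99, 4.39, 8.43 and 26.5 CPM. At ZT20 they were 12.5, 20.4, 2.41, 1.65 and 3.67 CPM. Here 4 of 5 mice were high at ZT12 and none was above 30 CPM at ZT16 or ZT20. Levels above 100 CPM were seen in 7 of 15 CIA libraries from ZT0 to ZT8 and in 4 of 15 from ZT12 to ZT20, all 4 of them at ZT12.

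**Figure D1:**
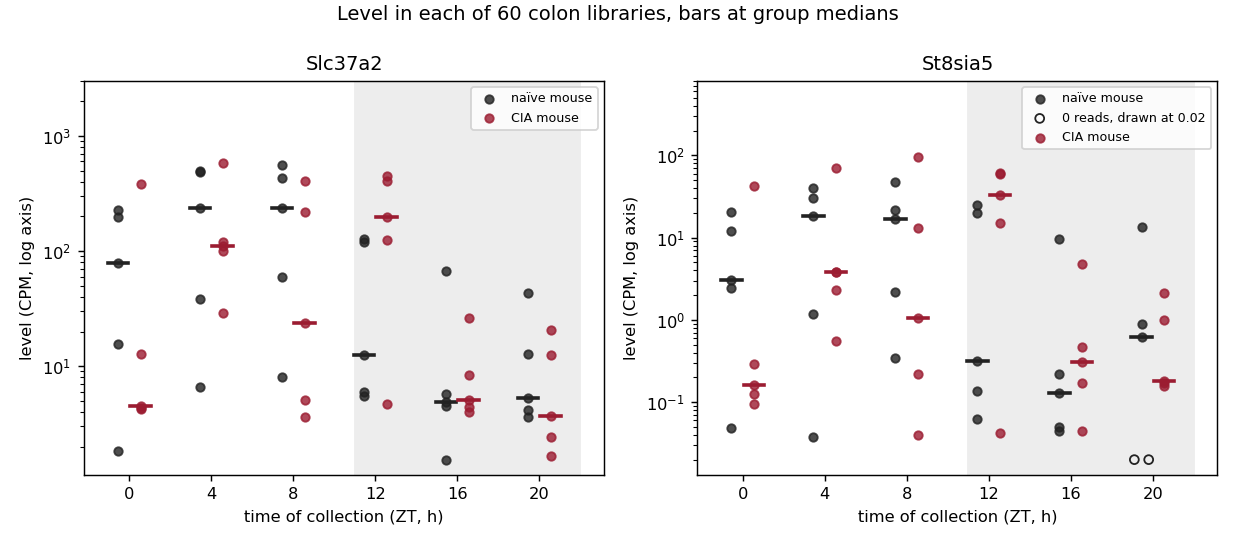
Level of Slc37a2 and St8sia5 (CPM, log axis) in each of the 60 libraries against time of collection (ZT, h), with naïve mice in black, CIA mice in red and a bar at each group median; the shaded band holds ZT12 to ZT20. Mice of 1 group lie up to 124-fold apart in Slc37a2, and the groups of different times overlap.

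St8sia5 was lower throughout and spread still wider. In naïve mice at ZT0 the libraries held 3.08, 11.9, 2.45, 20.4 and 0.0491 CPM. The ZT4 values were 0.0381, 29.97, 1.19, 18.2 and 40.3 CPM. The ZT8 values were 21.8, 0.343, 2.16, 16.9 and 47.7 CPM. As for Slc37a2, each light-phase group held mice at more than 10 CPM beside mice at less than 1 CPM. At ZT12 the libraries held 0.0621, 24.6, 0.136, 20.1 and 0.319 CPM. At ZT16 they held 0.0502, 0.0451, 9.59, 0.129 and 0.222 CPM. At ZT20 they held 0, 0.621, 0, 13.5 and 0.901 CPM, where the counts of 0 allow levels of up to 0.0590 and 0.0517 CPM (3 counts; counting error only). A single mouse stood above 1 CPM at ZT16 and at ZT20.

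In CIA mice the St8sia5 values at ZT0 were 0.160, 0.290, 42.8, 0.124 and 0.0937 CPM. The ZT4 libraries held 3.84, 70.2, 0.551, 2.30 and 3.82 CPM. The ZT8 libraries held 0.221, 0.0397, 12.95, 96.3 and 1.05 CPM. In all 3 groups the highest library was the one that was also highest in Slc37a2. The ZT12 libraries held 32.8, 0.0418, 15.1, 61.4 and 59.5 CPM. The ZT16 libraries held 0.305, 0.0448, 0.169, 0.468 and 4.77 CPM. The ZT20 libraries held 0.993, 2.15, 0.157, 0.171 and 0.182 CPM. The 4 high mice of ZT12 were the 4 that were high in Slc37a2, and no CIA mouse reached 5 CPM at ZT16 or ZT20.

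Ordered by the group median, Slc37a2 in naïve mice went from ZT4 (236 CPM) and ZT8 (235 CPM) through ZT0 (78.6 CPM) and ZT12 (12.6 CPM) to ZT20 (5.28 CPM) and ZT16 (4.89 CPM). In CIA mice the order was ZT12 (196 CPM), ZT4 (111 CPM), ZT8 (23.6 CPM), ZT16 (5.09 CPM), ZT0 (4.51 CPM) and ZT20 (3.67 CPM). For St8sia5 the highest median was 18.2 CPM at ZT4 in naïve mice and 32.8 CPM at ZT12 in CIA mice, and the lowest were 0.129 CPM at ZT16 and 0.160 CPM at ZT0. Every pair of neighbours in these orders overlapped in range. Of the 15 pairs of time points, 15 overlapped in naïve mice for either gene, 15 in CIA mice for St8sia5 and 13 in CIA mice for Slc37a2, where ZT4 lay wholly above ZT16 and ZT20.

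The 24 h cosine fitted to log2 CPM (prior count of 2) gave Slc37a2 an amplitude of 2.29 ± 0.58 (SE, n = 30) with a peak at ZT5.51 ± 0.964 h in naïve mice, and of 2.09 ± 0.61 with a peak at ZT7.54 ± 1.12 h in CIA mice. St8sia5 had an amplitude of 2.27 ± 0.81 with a peak at ZT5.39 ± 1.36 h in naïve mice, and of 1.96 ± 0.81 with a peak at ZT8.53 ± 1.58 h in CIA mice. The Schwarz weight of a rhythm shared by both treatments was 0.947 for Slc37a2 and 0.666 for St8sia5, beside a weight of 0.000811 and 0.155 for no rhythm. These are the values that chose the genes.

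The amplitudes fell among those of clock genes, but the cosine accounted for less of the variance between libraries. Among the 4631 genes of the shared-rhythm class that averaged 10 CPM or more, Slc37a2 and St8sia5 took the places 4 and 5 by naïve amplitude, between the REV-ERB repressor genes Nr1d1 (2.52) and Nr1d2 (1.92). The cosine accounted for 36.8% and 30.1% of the variance of Slc37a2 in naïve and CIA mice, and for 22.5% and 17.7% of that of St8sia5. For Nr1d1 it accounted for 89.6% and 89.9%, for the output factor Dbp for 81.9% and 89.6%, and for Nr1d2 for 80.6% and 88.0%. The cosine thus left most of the variance between libraries unaccounted for. In CIA mice the group with the highest mean was not in the light phase but at ZT12, where Slc37a2 averaged 236 ± 189 CPM and St8sia5 33.8 ± 26.98 CPM (SD, n = 5), and St8sia5 reached 10 CPM in 4 of 15 CIA libraries from ZT0 to ZT8 and in 4 of 15 from ZT12 to ZT20.

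Mice of the same group differed far more in these genes than in clock genes. The SD between mice of a group, over all 12 groups, was 2.31 on the log2 scale for Slc37a2 and 3.22 for St8sia5. These were the places 28 and 5 among the 18057 genes, whose median SD was 0.28. Dbp had an SD of 0.86 and Arntl of 0.54, and the 19 clock genes ranged from 0.19 to 0.99 with a median of 0.51. The SD was 1.01 times the naïve amplitude in Slc37a2 and 1.42 times in St8sia5, against 0.313 times in Dbp. The ratio of the highest to the lowest mouse of a group ran from 6.63 (CIA, ZT16) to 124 (naïve, ZT0) in Slc37a2.

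**Figure D2:**
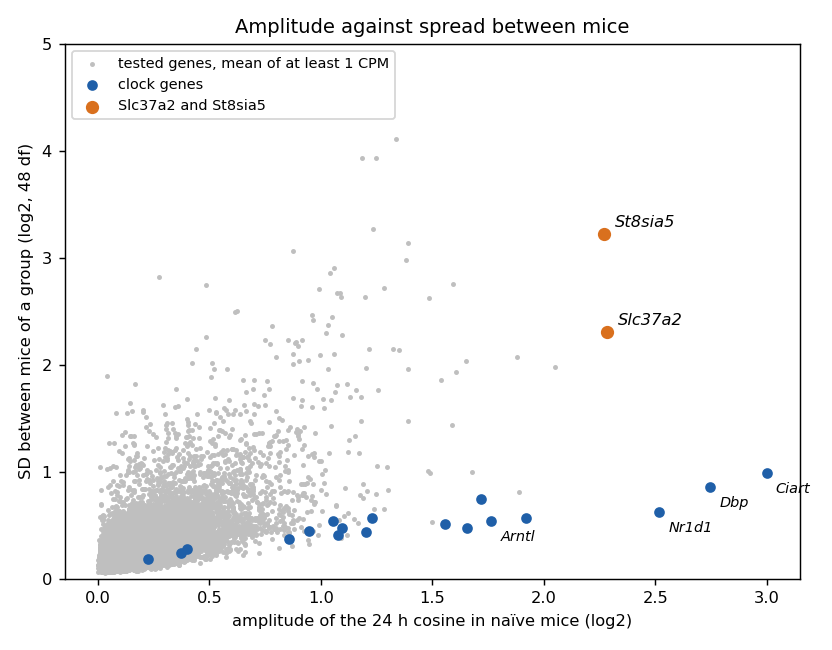
SD between mice of a group (log2) against the amplitude of the 24 h cosine in naïve mice (log2) for tested genes averaging 1 CPM or more (grey), the clock genes (blue) and the selected pair (orange). Slc37a2 and St8sia5 lie between Nr1d2 and Nr1d1 in amplitude, at an SD of 2.31 and 3.22, above the 0.99 of the most variable clock gene.

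The same mice were high in both genes. After the mean of each group was removed, log2 CPM of Slc37a2 and St8sia5 correlated with Pearson's r = 0.955 and Spearman's rho = 0.941 over 60 libraries. Both had p = 0.00001 by permutation within groups (2-sided, 100000 resamples, the smallest p they can give) and 0.00007 after Benjamini-Hochberg adjustment over the 7 relations computed. Without the 2 libraries farthest from the median of Slc37a2, r was 0.947, and it was 0.939 within naïve and 0.973 within CIA mice. Within the 12 groups taken singly r ran from 0.871 to 0.997, and in 10 of 12 groups the same library was highest in both. Sorted by level, neighbouring libraries were never more than 0.69 apart on the log2 scale for Slc37a2, over a span of 8.53. For St8sia5 they were never more than 1.00 apart over a span of 11.04. Such gaps cannot tell a single range from overlapping clusters, and clustering was not tested.

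**Figure D3:**
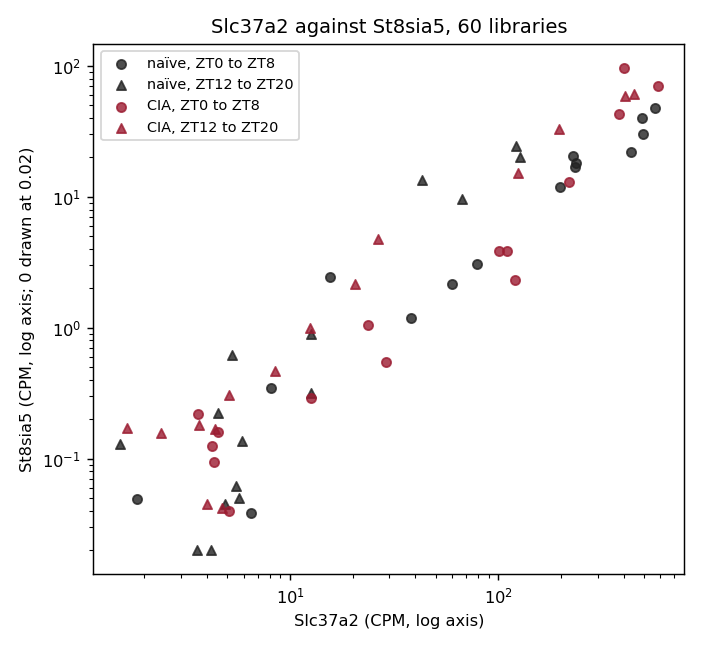
St8sia5 against Slc37a2 (CPM, log axes) in 60 libraries, with naïve mice in black, CIA mice in red, circles for ZT0 to ZT8 and triangles for ZT12 to ZT20. The 2 levels rise together over the whole range (r = 0.949 over 60 libraries) in both treatments, and a count of 0 is drawn at 0.02.

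Dbp did not share this variation between mice. Its within-group r was 0.152 with Slc37a2 (permutation p = 0.29, adjusted 0.29) and 0.169 with St8sia5 (permutation p = 0.25, adjusted 0.29). The smooth muscle score, the mean log2 CPM of 8 contractile genes, was lower where the genes were high, with r = -0.47 for Slc37a2 (permutation p = 0.00060, adjusted 0.0014) and r = -0.49 for St8sia5 (permutation p = 0.00052, adjusted 0.0014). The macrophage score of 13 genes was higher, with r = 0.31 (permutation p = 0.027, adjusted 0.038) and r = 0.37 (permutation p = 0.0096, adjusted 0.017). Spearman's rho was 0.193 and 0.203 for Dbp (adjusted permutation p of 0.16 for both), -0.485 and -0.525 for smooth muscle (0.0011 and 0.0008), and 0.308 and 0.379 for macrophages (0.045 and 0.014). Without the 2 farthest libraries the 6 values of r were 0.146, 0.163, -0.426, -0.445, 0.305 and 0.376 in the order given. In naïve mice alone r with the smooth muscle score was -0.294 and -0.300, in CIA mice alone -0.677 and -0.707. For the macrophage score the naïve values were 0.173 and 0.287 and the CIA values 0.477 and 0.471, and for Dbp 0.211 and 0.215 against 0.0701 and 0.106. In naïve mice alone the relations with the smooth muscle score (adjusted permutation p of 0.274 for both genes) and with the macrophage score (0.365 and 0.274) did not pass, and without the pair of libraries highest in interferon genes, naïve ZT4 replicate 5 and naïve ZT12 replicate 3, that of Slc37a2 with the macrophage score did not pass either (0.0501).

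The genes whose levels followed Slc37a2 most closely over the 60 libraries were St8sia5 (r = 0.949), the N-glycan branching enzyme gene Mgat4a (0.949), Rapgefl1 (0.947), Itih5 (0.945), which encodes a heavy chain of the inter-alpha-trypsin inhibitor family, and the cytochrome P450 gene Cyp2d12 (0.945). Over the 12 group means their r was 0.974, 0.958, 0.971, 0.967 and 0.953. For St8sia5 the closest were Cyp2d12 (0.952), Tnni1 (0.952), the slow-twitch form of the inhibitory troponin subunit, Slc37a2 (0.949), the membrane protease gene Tmprss13 (0.947) and Itih5 (0.946). Over the 12 group means these had r of 0.964, 0.946, 0.974, 0.946 and 0.968. Mgat4a moved over a narrow range, from 162 to 829 CPM, and Cyp2d12 over a wide one, from 1.04 to 171 CPM. Cyp2d12 has close copies in its family, and reads could have been divided among them.

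Many genes varied with the pair. At r of at least 0.5 within groups there were 2767 genes with Slc37a2 (15.3% of tested genes), and at -0.5 or below there were 2423 (13.4%). For St8sia5 the counts were 2807 and 2460. The leading principal component of the within-group values held 28.3% of their variance and had r of 0.931 with Slc37a2 and 0.936 with St8sia5 in size, while the next held 8.03% with r of 0.173 and 0.162. The correlations with listed genes below are descriptions over the same 60 libraries.

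Hox genes, whose paralog groups mark position from front to rear along the body and gut, were looked at after their values had been seen. Of the 39 annotated, 33 passed the filter. Within groups, Slc37a2 correlated with Hoxd12 at r = 0.855, with Hoxd13 at 0.806, with Hoxb13 at 0.716 and with Hoxa13 at 0.36. Hoxa11 ran the other way at r = -0.796. Of the 24 genes of paralog groups 1 to 9, 3 had a positive r and the median was -0.446, with 0 at 0.5 or above and 10 at -0.5 or below. Of the 9 genes of groups 10 to 13, 6 had a positive r and the median was 0.431. Here 3 were at 0.5 or above and 2 at -0.5 or below, Hoxa11 and Hoxc10 (-0.605, at a mean of 0.0569 CPM). Of all tested genes 15.3% and 13.4% passed these limits. In the library with the most Slc37a2 (CIA ZT4 replicate 2) Hoxd13 stood at 245 CPM and Hoxb13 at 396 CPM. In the library with the least (naïve ZT16 replicate 4) they stood at 0.259 and 0.129 CPM. The 245 CPM was the highest Hoxd13 level of the 60 libraries. At naïve ZT8, where Slc37a2 reached 564 CPM, Hoxd13 reached at most 25.8 CPM.

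**Figure D4:**
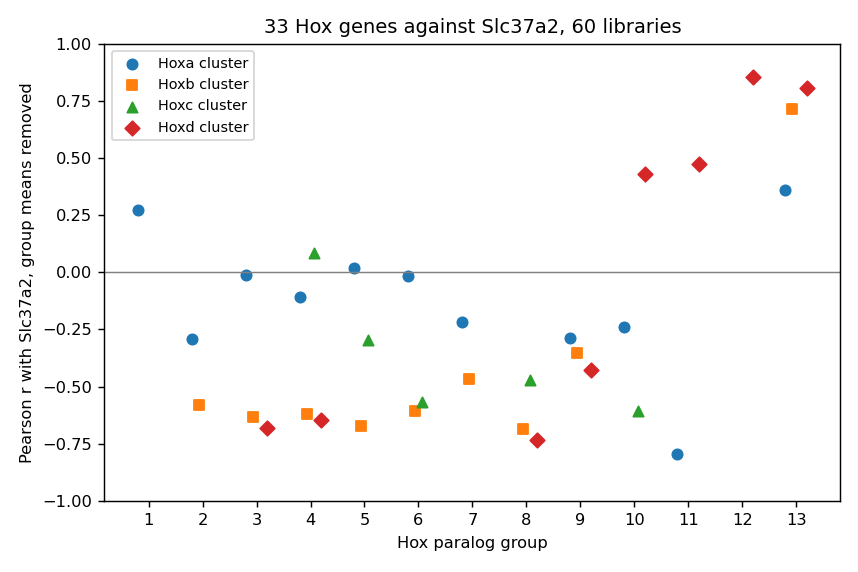
Pearson r of 33 Hox genes with Slc37a2 over 60 libraries, group means removed, by paralog group and cluster. The genes of groups 12 and 13 lie between 0.36 and 0.855, and those of groups 2 to 9 mostly lie below 0.

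The position of each section along the colon was not measured, beyond being mid-colon, and its part in the rhythm was not tested directly. The group 13 Hox score, the mean log2 CPM of Hoxa13, Hoxb13 and Hoxd13, had a 24 h amplitude of 0.525 ± 0.581 (SE) in naïve mice, with 2.94% of its variance, and of 0.884 ± 0.325 in CIA mice, with a peak at ZT9.30 ± 1.40 h and 21.6% of its variance. With this score as a covariate, added after the data had been seen, the naïve amplitudes were 1.90 for Slc37a2 and 1.78 for St8sia5. The CIA amplitudes became 1.10 and 0.56, with peaks at ZT5.42 and ZT6.28. Hoxd13 and Hoxb13 passed limma's rhythm test in neither treatment (adjusted p of 0.724 and 0.729 in naïve and 0.132 and 0.0908 in CIA mice), and Hoxa13 passed in CIA mice (0.0023) but not in naïve mice (0.583).

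No difference between treatments over all times passed the test for either gene. Slc37a2 averaged 117 ± 169 CPM (SD, n = 30) in the naïve mice and 109 ± 166 CPM in those with CIA, with medians of 26.9 and 16.5 CPM. The log2 fold change of CIA over naïve was -0.099 ± 0.619 (SE), with an adjusted p of 0.915 by edgeR's quasi-likelihood test. St8sia5 averaged 9.56 ± 13.1 CPM in the naïve mice and 13.8 ± 25.7 CPM in those with CIA, with medians of 1.68 and 0.772 CPM, so that its mean was higher and its median lower in CIA. Its log2 fold change was 0.53 ± 0.71, with an adjusted p of 0.584. Of all tested genes 17.6% were called higher and 20.4% lower in CIA, and 0 of the 2 genes were called in either direction. Their unadjusted p were 0.873 and 0.462, and DESeq2 gave adjusted p of 0.909 and 0.566. With SEs of this size, smaller differences of either sign could not be detected.

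At no time point did either gene pass between treatments. The largest differences were at ZT12, where the log2 fold change of CIA over naïve was 2.12 ± 1.31 (SE) for Slc37a2 (adjusted p of 0.314, edgeR) and 1.90 ± 1.66 for St8sia5 (0.504), and at ZT20, where it was -2.03 ± 1.84 for St8sia5 (0.477). All other values lay between -0.99 and 0.31. The share of genes called was 0.0222% at ZT0, 0.858% at ZT4, 0.0332% at ZT8, 9.28% at ZT12, 0.00554% at ZT16 and 13% at ZT20, with 0 of the 2 genes at each. The lowest unadjusted p was 0.111 (Slc37a2 at ZT12), for which DESeq2 gave 0.058, or 0.201 adjusted. When the smooth muscle score entered the model as a covariate, both passed at ZT12, with log2 fold changes of 4.16 (adjusted p of 0.0284, edgeR) and 5.05 (0.0403). That score averaged 10.9 in CIA and 10.2 in naïve mice, ranged from 9.95 to 11.7 and from 9.17 to 11.3, and its 8 genes were all called higher in CIA.

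At ZT0, ZT16 and ZT20, and for St8sia5 also at ZT4 and ZT8, the sign of the difference turned on single mice. CIA ZT0 replicate 3, at 381 CPM of Slc37a2 and 42.8 CPM of St8sia5, stood against 4 mice at no more than 12.7 and 0.290 CPM. Without it the log2 fold change at ZT0 went from -0.36 to -4.02 for Slc37a2 (adjusted p of 0.0789, edgeR) and from 0.20 to -5.48 for St8sia5 (0.126). At ZT16 the values without naïve replicate 3 were 1.21 and 3.29, and without CIA replicate 5 they were -1.58 and -2.92, against -0.76 and -0.72 with all mice. At ZT20 the values without naïve replicate 4 were 0.33 and 1.02, against -0.76 and -2.03 with all mice. St8sia5 at ZT8 went from 0.31 to -2.32 without CIA replicate 4, and at ZT4 from -0.15 to 0.39 without naïve replicate 5. Slc37a2 at ZT4 and ZT8, and both genes at ZT12, kept their sign whichever library was left out.

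The rhythms did not pass a test of their difference between treatments. For the cosine and sine terms the adjusted p was 0.807 for Slc37a2 and 0.832 for St8sia5 (edgeR, 2 degrees of freedom) with 0.0222% of genes called (4 genes by edgeR and 0 by limma, 1176 at an unadjusted p under 0.05). Both genes were chosen for a light-phase rhythm in each treatment, which favours similar rhythms. This test can therefore not decide whether their rhythms differ, and the later fitted peaks of the CIA mice are not shown to differ from the naïve peaks. Whether the treatment difference changed across the 6 times gave an adjusted p of 0.965 for both genes (edgeR, 5 degrees of freedom), where 0% of genes were called by edgeR or limma and 817 genes had an unadjusted p under 0.05.

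Within the SLC37 family the large spread was seen in Slc37a2 alone. Per kilobase of exon, the median levels were 19.7 CPM for Slc37a1, 12.5 for Slc37a3, 11.1 for Slc37a4 and 2.71 for Slc37a2. Slc37a1 ran from 135 to 332 CPM over the 60 libraries, Slc37a3 from 48.2 to 108 CPM and Slc37a4 from 21.7 to 47.8 CPM, with SDs between mice of 0.20, 0.20 and 0.22 on the log2 scale. Slc37a4 encodes the transporter that feeds glucose 6-phosphate to the phosphatase in the endoplasmic reticulum. It peaked at ZT6.92 in naïve and ZT8.86 in CIA mice with an amplitude of 0.19 in both, and passed limma's rhythm test (adjusted p of 0.0352 and 0.0198). Slc37a1 peaked at ZT11.5 and ZT10.4 with amplitudes of 0.21 and 0.28, and Slc37a3 had amplitudes of 0.15 in both. Slc37a1 passed in both treatments and Slc37a3 in CIA mice, and none of these 3 was called between treatments. Within groups Slc37a4 went with Slc37a2 (r = 0.741), Slc37a3 against it (-0.741) and Slc37a1 with neither (-0.037).

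Of 13 tested genes for the making and use of glucose 6-phosphate, 2 passed the rhythm test in naïve and 4 in CIA mice, where 32.6% and 30.6% of all tested genes passed. The phosphatase subunit gene G6pc3 had an amplitude of 0.11 in naïve mice (adjusted p of 0.018, limma) and the phosphoglucomutase gene Pgm2 of 0.19 (0.0229). Between treatments 1 gene was higher in CIA and 3 were lower, beside 17.6% higher and 20.4% lower over all tested genes. The median log2 fold change of the list was -0.12 beside -0.025 over all tested genes. Within groups 2 of the 13 had r of at least 0.5 with Slc37a2 and 4 had -0.5 or below, where 15.3% and 13.4% of all tested genes did. The hexokinase domain gene Hkdc1 had r = -0.90.

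The other genes of the ST8SIA family were low and spread less. Per kilobase of exon the median was 0.231 CPM for St8sia4, 0.228 for St8sia1, 0.201 for St8sia3, 0.188 for St8sia5, 0.0817 for St8sia6 and 0.0760 for St8sia2, while the highest library held 96.3 CPM of St8sia5 and no more than 11.7 CPM of any other member. St8sia4, one of the enzymes that make polysialic acid, had a rhythm in naïve mice with an amplitude of 0.39 and a peak at ZT5.56 (adjusted p of 0.0082, limma) and an amplitude of 0.017 in CIA mice (0.992). It fell by 0.41 ± 0.11 on the log2 scale in CIA mice (4.28 ± 1.21 against 5.68 ± 1.90 CPM, SD; adjusted p of 0.0030, edgeR). St8sia3 rose in CIA mice by 0.56 ± 0.14 (2.88 ± 0.904 against 1.96 ± 0.756 CPM; 0.0016), with a naïve amplitude of 0.54 (0.0283, limma). St8sia1, which makes the ganglioside GD3 that the later enzymes extend, had r = 0.732 with Slc37a2 and 0.739 with St8sia5 within groups and did not pass for rhythm (0.572 and 0.170) or treatment (0.140). St8sia2 had r of -0.452 and -0.505 with the pair, and St8sia6 of 0.452 and 0.442.

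Among all 17 other sialyltransferases tested, the rhythm test called 3 in naïve and 1 in CIA mice, 2 were higher and 3 lower in CIA, and 4 had r of at least 0.5 with Slc37a2 while 4 had -0.5 or below. Over all tested genes 32.6% and 30.6% passed for rhythm, 17.6% were higher and 20.4% lower, and 15.3% and 13.4% passed these limits of r. St6galnac5 was the third that passed in naïve mice, beside St8sia3 and St8sia4, with an amplitude of 0.46 at a mean of only 0.439 CPM (adjusted p of 0.019, limma). Of 12 genes for the supply and removal of sialic acid, 5 were rhythmic in naïve and 6 in CIA mice, against the same 32.6% and 30.6%. The Golgi carrier of CMP-sialic acid, Slc35a1, peaked at ZT21.1 with an amplitude of 0.37 (0.0012), the esterase gene Siae at ZT20.3 with 0.19 (0.0043) and the lysosomal exporter gene Slc17a5 at ZT23.7 with 0.21 (0.0221). In naïve mice these peaks lay late in the night, away from that of St8sia5. In CIA mice 0 of the 12 were higher and 7 were lower (edgeR; 20.4% of all tested genes were lower), with a median log2 fold change of -0.26. Slc35a1 fell by 0.27 ± 0.096 (0.0198), Siae fell by 0.13 ± 0.048 (0.033), and Slc17a5 stood at -0.0059 ± 0.065 (0.953).

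Of the 17 other genes of ganglioside synthesis and breakdown, 6 were rhythmic in naïve and 4 in CIA mice, and 4 were higher and 2 lower in CIA. These counts stand beside 32.6% and 30.6% rhythmic, 17.6% higher and 20.4% lower over all tested genes. Glb1, for lysosomal beta-galactosidase, peaked at ZT3.80 with an amplitude of 0.18 (adjusted p of 0.0030, limma) and fell by 0.29 ± 0.053 in CIA mice (33.2 ± 5.16 against 40.5 ± 5.23 CPM, SD; 2.6e-05, edgeR). B4galt5, for lactosylceramide synthase, peaked at ZT9.17 with 0.27 (0.0174), and Gm2a, for the activator protein of GM2 breakdown, at ZT6.69 with 0.26 (0.0211). These amplitudes were small beside the 2.27 of St8sia5. Within groups 6 of the 17 had r of at least 0.5 with Slc37a2 and 4 had -0.5 or below, where 15.3% and 13.4% of all tested genes did. The median r of the 17 was 0.275 beside -0.0072 over all tested genes. The plasma membrane sialidase gene Neu3 varied with Slc37a2 (0.923), and B4galnt1, for GM2 synthase, varied against it (-0.870).

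Clock genes gave the contrast. Of 19 tested, 18 passed the rhythm test in each treatment (32.6% and 30.6% of all tested genes). Between treatments 1 was called higher in CIA and 0 lower, beside 17.6% and 20.4% of all tested genes. Nr1d1 peaked at ZT8.39 and ZT7.67, Dbp at ZT10.3 and ZT10.1, and Arntl at ZT23.3 and ZT23.1, with adjusted p of 2.2e-11, 2.6e-08 and 2.7e-08 in naïve mice (limma). Within groups 3 of the 19 had r of at least 0.5 with Slc37a2 and 2 had -0.5 or below, and Arntl had r = 0.045. Of all tested genes 15.3% and 13.4% passed these limits of r.

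Some marker genes of other cells varied with the pair, in both directions within some lists. Of all tested genes 15.3% had r of at least 0.5 with Slc37a2 and 13.4% had -0.5 or below. Of 8 enteroendocrine genes, 3 had r of at least 0.5 and 2 had -0.5 or below: the peptide YY gene Pyy had 0.873 and Insl5 0.811, while Cck had -0.819 and the secretin gene Sct -0.878. Of 7 goblet cell genes 5 were at 0.5 or above and 2 at -0.5 or below, the mucin gene Muc2 (-0.878) and Agr2 (-0.715). Of 13 macrophage genes 3 were at 0.5 or above, led by Cd14 (0.867), while Adgre1 was at -0.437. So small a count, beside 15.3% of all tested genes, says little about these cells. Smooth muscle genes were all negative, from -0.641 to -0.238, as were the 9 enteric neuron genes, from -0.460 to -0.066. The 5 tuft cell genes ran from -0.766 to -0.0017, the 6 skeletal muscle genes from -0.698 to -0.143, the 3 small intestine genes from -0.855 to -0.038 and the 8 colonocyte genes from -0.762 to 0.749. Between treatments, 10 of the 13 macrophage genes were lower in CIA and 0 higher, all 9 enteric neuron genes and 8 smooth muscle genes were higher, and 4 of the 8 enteroendocrine genes and 1 of the 7 goblet cell genes were lower. Of the colonocyte genes 2 were higher and 2 lower, of the tuft cell and of the skeletal muscle genes 2 were higher, and of the small intestine genes 1 was lower. Over all tested genes 17.6% were higher and 20.4% lower, so that the small counts of the colonocyte, goblet cell and small intestine lists say little about them. The part of these cells in the levels of Slc37a2 and St8sia5 was not tested.

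**Figure D5:**
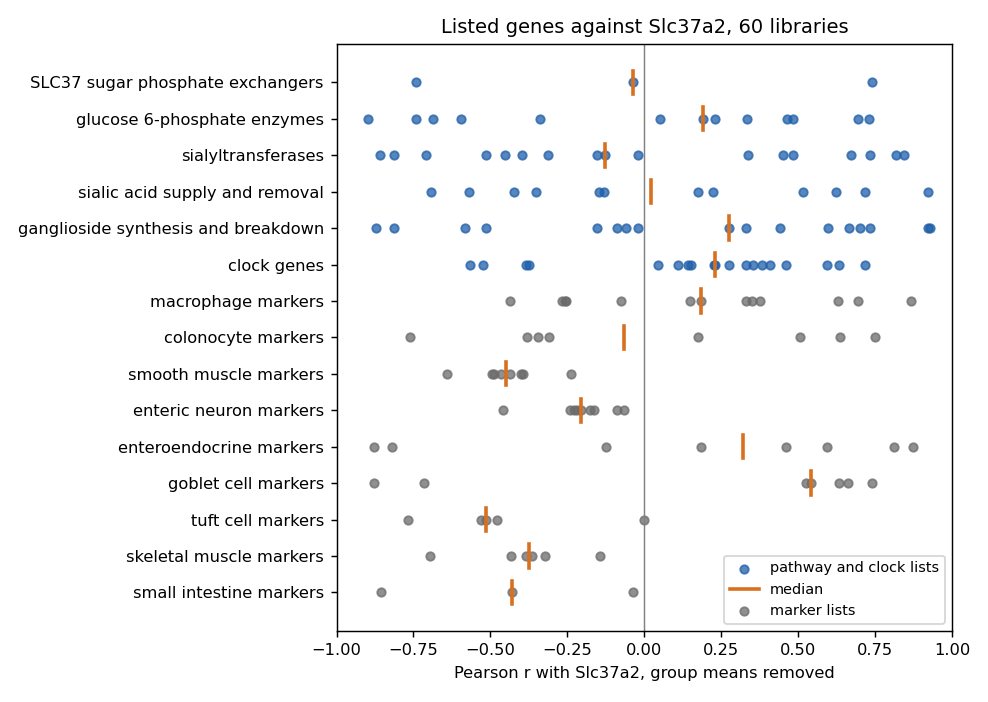
Pearson r of the genes of each list with Slc37a2 over 60 libraries, group means removed, with 1 point per gene and an orange bar at the list median. The enzyme lists have genes on both sides of 0, the smooth muscle, enteric neuron, tuft cell, skeletal muscle and small intestine lists lie below 0, and the clock genes have a median of 0.229.

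The neighbours of the pair on the chromosome did not follow it as a block. Beside Slc37a2, Tmem218 (5.92 kb away) had r = 0.714 within groups, Pknox2 -0.797, Ccdc15 0.089 and Hepacam (112 kb away) 0.777. Hepacam, for a cell adhesion protein, had amplitudes of 1.07 and 0.81 with peaks at ZT6.85 and ZT7.83 (adjusted p of 0.00032 and 0.0026, limma). Beside St8sia5, Pias2 (30.1 kb away), for a SUMO ligase, had r = 0.896 with it, Katnal2 0.208, Rnf165 -0.440 and 8030462N17Rik -0.357. Pias2 ranged only from 40.1 to 76.7 CPM. In RefSeq 1 gene model overlaps each of the pair, Gm10177 and Gm7276, and neither has a row in the count table.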

How the data were processed

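RNA from mid-colon of 60 mice (12 groups of 5) was sequenced. Per the labels, the authors used bcl2fastq 2.17.1.14, Trimmomatic 0.36 and STAR 2.5.3 with mm10 (GRCm38), and deposited a table of unnormalised counts per gene, made with Rsubread by the study's methods. Symbols for 25275 gene IDs came from RefSeq, and 1904 had none. Genes passed edgeR's filterByExpr (minimum count 10, minimum total 15) and were scaled by TMM.

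Treatments were compared by edgeR 4.0.16 quasi-likelihood tests with Benjamini-Hochberg adjustment (0.05), rhythms by limma 3.58.1 on log2 CPM (prior count 2) with a 24 h cosine and by Schwarz weights (0.6) over 5 models, in R 4.3.3. DESeq2 1.42.0 was an alternative. Relations used residuals from the group means and 2-sided permutation within groups. The steps were tested on simulated data in which 200 of the 18057 genes were changed 2-fold and 200 others were given a 24 h rhythm. These were drawn from genes of limited spread, so that the simulation does not bear on genes as variable as the pair.

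The members and lists were chosen with earlier results of these data known. Genes named were both members, their families, the 5 genes most like each in r over 60 libraries (mean of at least 1 CPM), the 2 nearest tested genes on each side, up to 3 genes per pathway list with the smallest naïve rhythm p, neighbours in amplitude, and markers beside a member's value. Some listed genes are not reported here. Hox genes and the other list genes given with their r were chosen after their values were seen. No 2 libraries held identical counts. Intervals and limits of 3 counts cover counting error only.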

Additional observations from a re-analysis of the deposited data

Results flagged for a closer look

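In 11 of the 24 sets of 5 libraries (2 genes in 12 groups) the highest library stood so far from the next that its gap exceeded 0.71 of the group's range in CPM. Chance flags about 1 in 20 groups of normally distributed values without an outlier. The values here were unlogged CPM, of genes whose SD between mice was 2.31 and 3.22 on the log2 scale. The 11 can therefore not be set against that rate. The 2 genes share their libraries, so that these are not independent cases.

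For Slc37a2 the libraries were naïve ZT16 replicate 3 (66.7 CPM, next 5.72), naïve ZT20 replicate 4 (42.99 CPM, next 12.6), CIA ZT0 replicate 3 (381 CPM, next 12.7), CIA ZT4 replicate 2 (582 CPM, next 120) and CIA ZT16 replicate 5 (26.5 CPM, next 8.43). In St8sia5 the same 5 libraries stood apart at 9.59 CPM (next 0.222), 13.5 CPM (next 0.901), 42.8 CPM (next 0.290), 70.2 CPM (next 3.84) and 4.77 CPM (next 0.468). CIA ZT8 replicate 4 stood apart in St8sia5 (96.3 CPM, next 12.95).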

How the results depend on the processing

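Of 995 fits of the 14 log2 fold changes of CIA over naïve, 2 passed, both at ZT12 in the model that held the smooth muscle score, and 0 of 280 fits of the differences between times or in rhythm passed (lowest adjusted p of 0.570, edgeR). With that covariate Slc37a2 stood at 1.51 over all times and at 1.59, 1.39, 0.11, 4.16, 0.41 and 1.22 from ZT0 to ZT20, and St8sia5 at 2.43 (ZT4), 5.05 (ZT12), 0.27 (ZT16) and 0.90 (ZT20). Over the 12 settings that did not leave out single libraries, St8sia5 ranged from -0.41 to 2.58 over all times (lowest adjusted p of 0.0544, edgeR). Over 11 such settings it ranged from -0.65 to 2.98 at ZT0. With the group 13 Hox score, chosen after seeing the data, Slc37a2 stood at 0.00747 (ZT20), and St8sia5 at -0.41 over all times, -0.65 (ZT0) and -0.72 (ZT8). The CIA amplitudes were then 1.10 and 0.56, with peaks 5.42 and 6.28 h after lights on. Without the pair of libraries highest in interferon genes Slc37a2 stood at 0.0195 over all times, St8sia5 at 0.39 (ZT4), and r of Slc37a2 with the macrophage score at 0.303, no longer past the threshold. St8sia5 stood at -0.12 (ZT0) without the skeletal muscle pair, at 0.13 (ZT4) without the clock pair and at -0.00430 over all times with time as a factor. In naïve mice alone r with the macrophage score was 0.170 and 0.283 and with the smooth muscle score -0.293 and -0.300. The causes were not tested.

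Replicate numbers did not pair the libraries: the mean r was 0.00284 between libraries of the same number and -0.000701 between libraries of other numbers. Of 330 same-number pairs 109 correlated above 0.1, and 11 of 60 libraries correlated best with their own number. The share of other pairs above 0.1 is not given here. With the replicate block Slc37a2 stood at -0.0185 and St8sia5 at 0.66 over all times, St8sia5 at -1.22 (ZT8), and no call changed.

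Without 1 library at a time, the log2 fold change of Slc37a2 ranged from -0.33 to 0.11 over all times, from -4.02 to 0.15 at ZT0, from -1.58 to 1.21 at ZT16 and from -1.45 to 0.33 at ZT20. That of St8sia5 ranged from -5.48 to 1.00 at ZT0, from -2.76 to 0.39 at ZT4, from -2.32 to 1.10 at ZT8, from -2.92 to 3.29 at ZT16 and from -3.03 to 1.02 at ZT20. The naïve amplitudes ranged from 2.14 to 2.58 and from 2.08 to 2.72, the CIA amplitudes from 1.95 to 2.45 and from 1.67 to 2.41, and r between the genes from 0.950 to 0.960. St8sia5 at ZT16 gave no value in separate fits of each time, where it did not pass the filter. Depth limits St8sia5 in the 10 libraries with at most 3 counts.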
